A study of Mus musculus with 8 samples.

Results

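The genes examined here make up the type I interferon pathway and the response it drives in microglia, and they were chosen by name: a peak belonged to a gene when the deposited tag table gave that gene as the peak's own. Of 36 genes listed, 32 had at least 1 peak, and together they held 160 of the 67822 peaks of the table. The list was split into 10 receptors, kinases and transcription factors, which held 73 peaks, and 26 interferon-induced genes, of which 22 held 87 peaks. Oasl2, Oas1a, Ifi203 and Ifi44 had no peak.

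Type I interferon binds a receptor of the IFNAR1 and IFNAR2 chains, which signals through the kinases JAK1 and TYK2. These phosphorylate STAT2, which acts with IRF9 in a complex that binds the interferon-stimulated response element (ISRE) and switches on antiviral genes. In microglia this programme is known from viral infection, ageing and amyloid pathology, and part of it is active at a low level without infection.

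Open chromatin was profiled with ATAC-seq, whose transposase inserts preferentially into accessible DNA, in CD11b-positive cells isolated magnetically from mouse forebrain. The samples were 4 libraries of Nlrp3-/- mice, called knockout below and described in the labels as Cias1-knockout (Millennium Pharmaceuticals), and 4 of wild-type animals (C57BL/6N). Nlrp3 encodes the sensor of an inflammasome, a complex that activates interleukin-1 beta. The labels give neither age, treatment nor whether replicates were separate animals, so the tests rest on library-to-library spread that could be partly technical.

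The share of tags falling in peaks varied most within the knockout group. The libraries held 11325865 to 15521580 tags, and this share was 6.68%, 4.96%, 20.9% and 26.2% in knockout replicates 1 to 4, against 17.5%, 9.79%, 12.8% and 14.4% in wild-type replicates 1 to 4. That is 14.7% ± 10.5 in knockout and 13.6% ± 3.20 in wild-type libraries (SD, n = 4 each), a difference of 1.07 percentage points (exact permutation test, two-sided, p = 0.829). The median member peak held 9, 7, 23.5 and 30 tags in the knockout libraries and 21, 14, 17 and 21.5 in the wild-type ones. The main promoter peak of Nlrp3 held 0, 0, 0 and 1 tag in the knockout libraries, against 75, 58, 58 and 80 tags in the wild-type libraries, so no library went against its genotype label. All 12 microglial markers examined had a promoter peak. Their 162 peaks took 0.263% to 0.296% of in-peak tags in knockout libraries and 0.250% to 0.274% in wild-type libraries. None of 9 monocyte and granulocyte markers and none of 9 lymphocyte markers had a promoter peak. The 15 monocyte and granulocyte peaks together took 0.0168% to 0.0362% in knockout and 0.0219% to 0.0328% in wild-type libraries. The lists differ in their number of peaks, so these shares are not levels per peak. Summed per gene, tags were higher in the knockout at 10 of 12 microglial markers. They were lower at 5 of 5 tested monocyte and granulocyte markers. None of these passed the test between genotypes described below, and 50.5% of all genes were higher. Other lists did hold promoter peaks: 2 of 7 border macrophage, 2 of 8 astrocyte and 3 of 10 oligodendrocyte markers. So did 3 of 8 endothelial and mural markers and 1 of 10 neuron markers. Summed by list, these peaks took from 0.00657% (neuron) to 0.0564% (astrocyte) in knockout libraries. In wild-type libraries they took from 0.00767% (neuron) to 0.05795% (endothelial and mural). The share of other cell types in each library was not tested.

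Among genes with a promoter sequence at hand, most induced genes carried the ISRE letters there, and receptors and factors mostly did not. The motif searched was GAAANNGAAA on both strands, in windows of 300 bases running from 250 bases before to 50 bases after each RefSeq start site (GRCm38.p6, the assembly of mm10). It occurred in 12 of 20 induced genes with a window (60%) and in 1 of 10 receptors and factors, against 3.99% of all 27025 genes. The windows of 6 genes shown next are written 5′ to 3′ on the strand of the gene, with the ISRE letters in capitals, because they show the range found: 3 overlapping matches in Isg15, a ubiquitin-like antiviral modifier (chr4:156200769-156201068, minus strand), 2 separate ones in Ifit1, which binds foreign RNA (chr19:34640639-34640938, plus strand), 1 far upstream in the chemokine Cxcl10 (chr5:92348840-92349139, minus strand), 1 after the start site in the RNA sensor Ifih1 (chr2:62646206-62646505, minus strand), the only one among receptors and factors, in Stat2 (chr10:128270248-128270547, plus strand), and none in Jak1 (chr4:101265174-101265473, minus strand). In Ifit1 and Stat2 the capitals show the reverse complement of the motif, which there lies on the opposite strand.
Isg15: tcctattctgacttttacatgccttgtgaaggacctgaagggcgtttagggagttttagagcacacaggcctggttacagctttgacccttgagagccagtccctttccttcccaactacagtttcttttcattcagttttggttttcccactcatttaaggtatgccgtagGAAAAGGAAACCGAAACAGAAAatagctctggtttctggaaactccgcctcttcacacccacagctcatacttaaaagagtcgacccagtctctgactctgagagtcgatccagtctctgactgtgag
Ifit1: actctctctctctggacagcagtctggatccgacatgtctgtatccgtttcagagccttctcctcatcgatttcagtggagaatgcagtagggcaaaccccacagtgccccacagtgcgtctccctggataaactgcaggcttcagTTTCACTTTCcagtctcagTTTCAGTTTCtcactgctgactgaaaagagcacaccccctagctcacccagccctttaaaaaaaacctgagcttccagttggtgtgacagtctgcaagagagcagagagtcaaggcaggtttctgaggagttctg
Cxcl10: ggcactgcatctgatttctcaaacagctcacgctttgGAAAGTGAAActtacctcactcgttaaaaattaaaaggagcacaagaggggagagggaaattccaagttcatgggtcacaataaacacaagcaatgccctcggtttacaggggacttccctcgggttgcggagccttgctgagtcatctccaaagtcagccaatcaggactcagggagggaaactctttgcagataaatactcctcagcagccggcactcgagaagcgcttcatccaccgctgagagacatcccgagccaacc
Ifih1: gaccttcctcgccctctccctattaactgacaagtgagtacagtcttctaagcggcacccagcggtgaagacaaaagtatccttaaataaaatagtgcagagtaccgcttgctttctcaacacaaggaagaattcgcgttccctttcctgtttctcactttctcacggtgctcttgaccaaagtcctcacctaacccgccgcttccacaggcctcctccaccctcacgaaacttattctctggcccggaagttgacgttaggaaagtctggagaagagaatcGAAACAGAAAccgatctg
Stat2: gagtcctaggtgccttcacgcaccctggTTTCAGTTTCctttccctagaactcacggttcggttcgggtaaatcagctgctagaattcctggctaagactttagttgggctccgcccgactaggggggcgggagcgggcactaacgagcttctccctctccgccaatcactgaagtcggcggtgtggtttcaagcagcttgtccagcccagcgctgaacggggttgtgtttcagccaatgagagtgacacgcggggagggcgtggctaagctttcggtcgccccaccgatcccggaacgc
Jak1: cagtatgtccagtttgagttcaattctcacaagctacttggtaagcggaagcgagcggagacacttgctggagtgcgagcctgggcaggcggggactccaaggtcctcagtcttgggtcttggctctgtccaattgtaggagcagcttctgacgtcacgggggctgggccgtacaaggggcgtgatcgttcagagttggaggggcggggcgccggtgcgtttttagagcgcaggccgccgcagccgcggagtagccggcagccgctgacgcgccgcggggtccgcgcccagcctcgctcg

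The 13 genes with the motif held 20 matches, and 12 of these matches lay inside a listed peak. In Isg15 the matches began 78, 72 and 66 bases before the start site, and in Ifit1 they began 104 and 85 bases before it. The match began 213 bases before the start site in Cxcl10 and 222 bases before it in Stat2, where it fell outside the listed peak. Among genes with the motif, no listed peak covered the window of Ifi203, Ifit3, Ifitm3 or Oas1a. Those windows held 7 matches, and 1 from each gene is shown with 10 bases on either side because these are motif-bearing promoters at which no open region was listed.
Ifit3: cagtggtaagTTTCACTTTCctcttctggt
Ifitm3: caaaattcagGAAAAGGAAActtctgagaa
Oas1a: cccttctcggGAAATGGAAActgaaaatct
Ifi203: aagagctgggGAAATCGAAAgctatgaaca

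The GAS letters TTCNNNGAA (gamma-activated sequence) occurred in 11 of 30 members with a window (36.7%) against 9.55% of all genes, and the PU.1 letters GAGGAAGT in 1 of 30, against 3.69%. The GAS letters read alike on both strands. A match is a description of these letters and does not show that a factor bound there. The windows of Dhx58, Ifi204, Usp18, Zbp1, Parp14 and Mx1 were not in the table. Median GC content was 58.8% in the windows of receptors and factors (52.7% to 75%) and 51.2% in those of induced genes (38.7% to 70.0%).

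Promoters of 6 of 9 receptors, kinases and factors had wild-type levels above those of at least 84.8% of genes, while Irf9 lay near the middle and Irf7 and Ifnar2 below it. By the same wild-type means, no induced gene with a tested promoter peak lay above more than 71.8% of genes. To compare genes, tags in the strongest promoter peak were expressed as CPM per kb of peak, that is, scaled to the tags in tested peaks and divided by peak width. The median over wild-type means was 169 CPM per kb for 9 receptors and factors, 67.5 for 17 induced genes and 69.4 for all 10245 genes with a tested promoter peak. Left out of these medians are members to which no promoter peak was assigned: Irf3, Ifit1, Ifit3, Ifitm3, Parp14, Oasl2, Oas1a, Ifi203 and Ifi44. Also left out is Ddx58, whose promoter peak was not tested. The medians therefore do not cover each full group. These levels are given as a description, with no test between the groups. The member peaks compared were 216 (Ifnar1) to 620 bases wide (Irf9), so ranks depend on the division by width.

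Ifnar1, a chain of the receptor, had the highest mean promoter level of any member in wild-type libraries, while Jak1 had the highest in knockout libraries. Its promoter (chr16:91485003-91485218) reached 279, 164, 270.4 and 269.6 CPM per kb in the knockout libraries, against 253, 218, 319 and 267 in the wild-type libraries. The groups overlapped, with knockout replicate 2 below every other library. The kinase Jak1 (chr4:101265245-101265463) had 259, 263, 269 and 266 CPM per kb in knockout and 261, 282, 236 and 255 in wild-type libraries, and its knockout values had the smallest SD of the 6 promoters described this way. Tyk2, its partner kinase (chr9:21131262-21131500), had 237, 124, 239 and 203 CPM per kb in knockout libraries and 189, 197, 214 and 224 in wild-type libraries. Knockout replicate 2 was again the lowest. The log2 fold changes of these promoters, knockout over wild type, were -0.07 ± 0.16, 0.04 ± 0.13 and 0.0024 ± 0.16 (SE). In wild-type libraries the level lay above that of 96.8% of genes for Ifnar1, 96.5% for Jak1 and 92.0% for Tyk2.

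Among the transcription factors, Irf1, Stat2 and Irf5 lay between the levels of 84.8% and 86.8% of genes. Their wild-type levels of 171 ± 21.8, 169 ± 5.55 and 160.1 ± 24.2 CPM per kb (SD, n = 4) did not differ beyond their spread. Irf9, the DNA-binding partner of STAT2, had 76.4 ± 8.69 and Irf7, which amplifies interferon production, 47.2 ± 9.22 CPM per kb in wild-type libraries. Ifnar2 had the lowest promoter level per kb of the receptors and factors, at 39.7 ± 9.10 CPM per kb in knockout and 39.3 ± 8.86 in wild-type libraries. The peaks of Ifnar2 and Irf9 were wide, at 461 and 620 bases. In CPM not divided by width, the wild-type mean of Ifnar2 was 18.1, above the 12.45 of Irf7. That of Irf9 was 47.4, above the 46.5 of Stat2 and the 38.4 of Irf1.

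The induced genes with the highest mean promoter level in wild-type libraries were Zbp1, a nucleic acid sensor that triggers cell death, Adar, an RNA-editing enzyme, and Trim25, the ubiquitin ligase that acts on RIG-I. Zbp1 (chr2:173218871-173219099) had 84.3, 70.9, 111 and 93.2 CPM per kb in knockout libraries and 152, 104, 87.0 and 108 in wild-type libraries. Adar (chr3:89730553-89730827) had 92.1, 85.9, 70.3 and 89.4 in knockout and 90.4, 105, 103 and 108 in wild-type libraries, so that 3 of 4 knockout libraries lay below all wild-type ones. Trim25 (chr11:88999279-88999527) had 77.5, 65.2, 70.5 and 90.9 in knockout and 83.9, 81.8, 142 and 84.2 in wild-type libraries, where replicate 3 stood apart and raised the mean. In knockout libraries the means of Ifit2, at 105.8 ± 26.9 CPM per kb, and Ifih1, at 94.6 ± 22.6, were above those of Zbp1, Adar and Trim25. At the other end, Rsad2, Isg15 and Eif2ak2 had 29.5 ± 3.88, 28.7 ± 9.39 and 26.3 ± 4.46 CPM per kb in wild-type libraries, which did not differ beyond their spread. Those levels lay above only 13%, 12% and 9.25% of genes. The promoter peak of Ddx58, which encodes RIG-I, held too few tags to be tested.

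**Figure D1:**
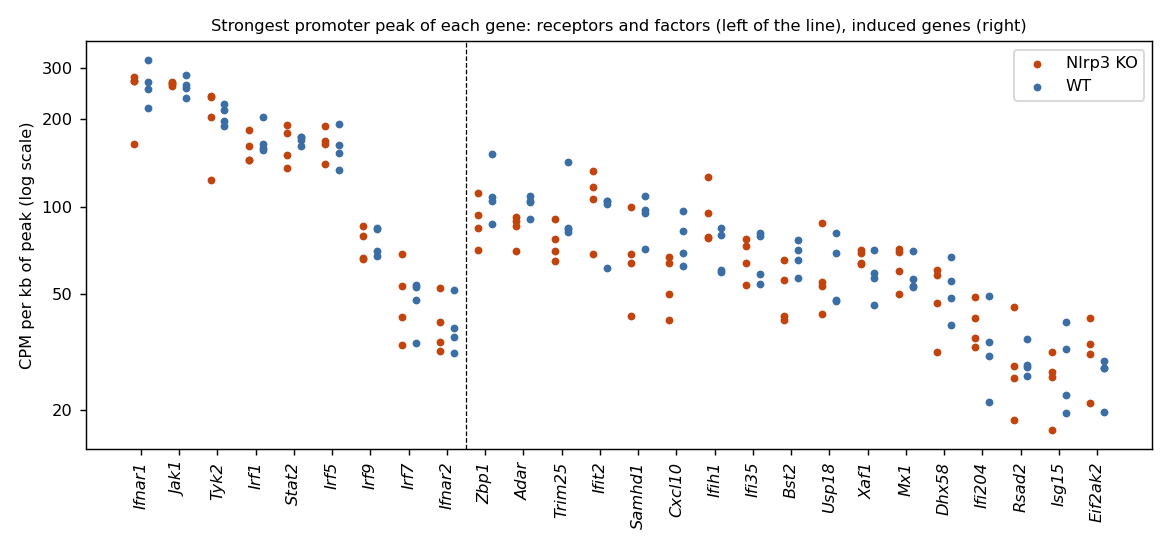
The strongest promoter peak of each of 26 genes, with CPM per kb of peak on a log axis and 1 point per library (knockout left, wild type right in each pair). Receptors and factors stand left of the dashed line and mostly higher than induced genes, and the points of the genotypes overlap for each gene drawn.

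No gene of the pathway or the response passed the test between genotypes. In edgeR's quasi-likelihood test of tags summed over each gene's peaks, 0 of 32 members reached an adjusted p under 0.05, against 33 of 15476 genes (0.213%). The lowest adjusted p of a member was 0.831. At an unadjusted p under 0.05 there were 2 of 32 members, Ifih1 and Zbp1, against 5.96% of all genes, which is close to the same share. DESeq2 called 0 member genes and 0 member peaks as well, with 1 gene and 0 peaks at an unadjusted p under 0.05. No member had 4 knockout libraries entirely above or below the 4 wild-type ones, as did 3.46% of all genes. A missed threshold does not show that accessibility was the same, and the intervals below give the sizes these libraries leave possible.

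Receptors, kinases and factors had the narrower range of values. Their log2 fold changes ran from -0.07 to 0.11, with a median of 0.02, 7 higher and 3 lower in the knockout, and all 10 lay within 0.2 of 0, as did 74.4% of all genes. The median over all genes was 0.0020. For 9 of the 10 the 95% interval of the fold change stayed inside a 1.5-fold change either way. The exception was Irf3, which turns on interferon genes after viral sensing and held only 2 small peaks here. The interval of Jak1 ran from -0.13 to 0.17 and that of Ifnar2 from -0.15 to 0.18 on the log2 scale.

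Irf5, which drives inflammatory cytokine genes in macrophages, had the smallest p among receptors and factors. Its summed peaks held 276, 255, 295 and 288 CPM in knockout libraries and 275, 274, 243 and 246 in wild-type libraries, where CPM for gene sums is relative to the tags of all tested genes. The groups overlapped, with a log2 fold change of 0.11 ± 0.08 (SE, edgeR adjusted p = 0.895). Irf1, an early inducer of interferon-stimulated genes, had 162, 175, 152 and 172 CPM in knockout and 178, 143, 136 and 154 in wild-type libraries. Its groups overlapped too, at a log2 fold change of 0.10 ± 0.09 (SE). Only 3 of the 10 Irf1 peaks lay inside the gene span. Both promoter peaks were lower in the knockout, at -0.07 and -0.15, while 6 of its 8 other peaks were higher and 2 lower.

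Induced genes spread more widely, with 10 higher and 12 lower, a median log2 fold change of -0.01, which was 0.064 with scaling to all tags, and a range of -0.23 to 0.33. The interval stayed inside a 1.5-fold change for 18 of 22 and inside a 2-fold change for 21 of 22, the exception being Ifit1. Replicates also varied more: the median SD of log2 CPM was 0.27 in knockout and 0.26 in wild-type libraries for induced genes, against 0.11 and 0.12 for receptors and factors. Induced genes held 9.38 (Ifit1) to 299 (Zbp1) tags per library on average, and receptors and factors 20.5 (Irf3) to 503 (Irf5). The median SE was 0.16 and 0.11 in turn. How far the lower counts account for the wider spread was not tested.

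The smallest p-values belonged to the sums of Ifih1 and Zbp1, which encode nucleic acid sensors, and both sums were higher in the knockout. Ifih1, which encodes the double-stranded RNA sensor MDA5, had 64.9, 82.5, 64.7 and 51.6 CPM in knockout libraries and 45.3, 52.7, 59.1 and 49.5 in wild-type libraries. Of the knockout libraries, 3 exceeded every wild-type one, and the log2 fold change was 0.29 ± 0.14 (SE, edgeR adjusted p = 0.831). Zbp1 had 215, 221, 177 and 144 CPM in knockout and 182, 159, 140.4 and 134 in wild-type libraries. Its groups overlapped, with a log2 fold change of 0.24 ± 0.12 (SE, edgeR adjusted p = 0.831). The Zbp1 sum covers 15 assigned peaks, of which 1 lay inside the gene span, so it mostly describes the surrounding region. That 1 peak, at the promoter, was lower in the knockout, at a log2 fold change of -0.27. In both genes knockout replicates 1 and 2, the libraries with the lowest knockout shares of tags in peaks, were the highest values, and without them the log2 fold changes were 0.16 ± 0.15 (SE) for Ifih1 and 0.05 ± 0.11 (SE) for Zbp1. The other sensors, Ddx58 and Dhx58, had log2 fold changes of -0.02 and -0.05.

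Trim25 and Adar had lower values in the knockout, also short of the threshold. Trim25 had 104, 92.6, 105 and 108 CPM in knockout and 126, 119, 154 and 85.8 in wild-type libraries, and wild-type replicate 4 lay below all others. Adar had 61.4, 69.4, 66.0 and 64.3 CPM in knockout and 77.5, 74.3, 72.9 and 67.2 in wild-type libraries, with 3 of 4 knockout libraries below every wild-type one. The log2 fold changes were -0.21 ± 0.13 for Trim25 and -0.16 ± 0.11 for Adar (SE), and all 5 tested peaks of each gene were lower in the knockout, none past the test. The Trim25 value was -0.08 without wild-type replicate 3 and -0.36 without wild-type replicate 4.

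The other named members had few peaks. Xaf1, a pro-apoptotic gene, had 22.4, 20.3, 21.6 and 19.5 CPM in knockout and 22.4, 17.6, 13.8 and 18.1 in wild-type libraries. Ifi204, a DNA sensor of the interferon-inducible p200 family, had 21.2, 20.3, 21.2 and 22.9 CPM in knockout and 19, 18.2, 13.3 and 24.3 in wild-type libraries. Both overlapped between genotypes and had a log2 fold change of 0.20 ± 0.20 (SE). Ifit1 had 8.26, 5.79, 5.92 and 4.64 CPM in knockout and 3.41, 2.70, 6.38 and 5.31 in wild-type libraries, from 1 peak some 21.5 kb from its start site. Cxcl10, a T cell attractant, had 57.8, 30.4, 53.7 and 56.5 CPM in knockout and 55.6, 56.8, 54.8 and 55.7 in wild-type libraries. Its wild-type values lay within 2 CPM of each other and knockout replicate 2 alone stood far below.

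**Figure D2:**
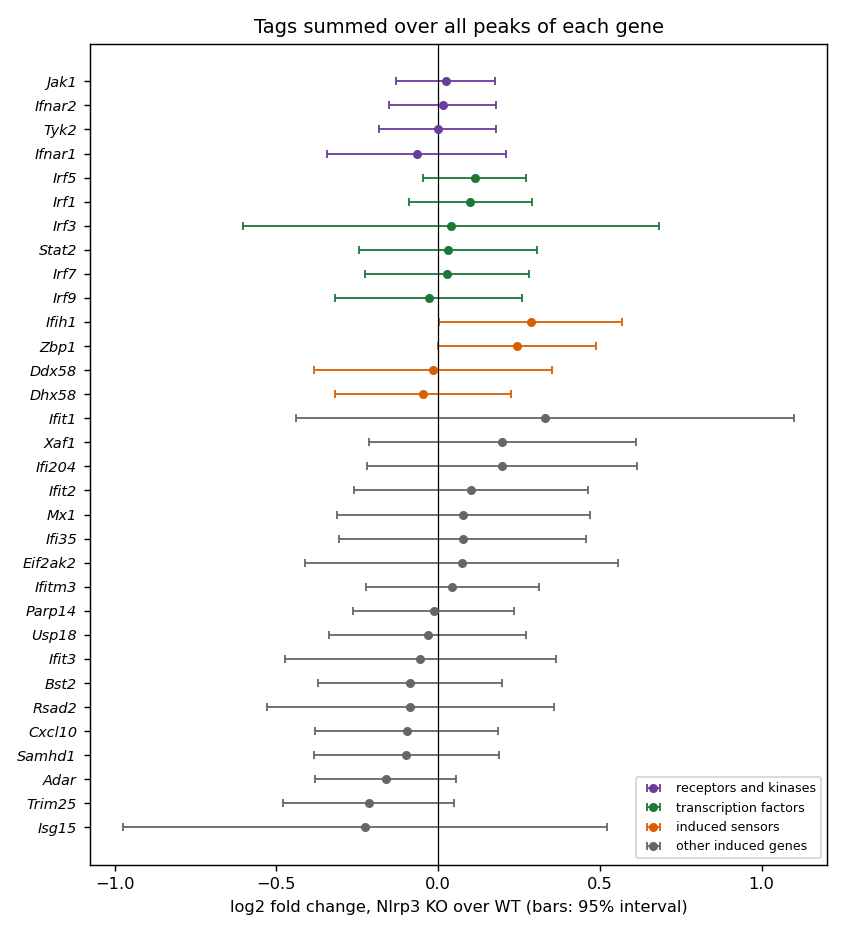
Log2 fold change (knockout over wild type, horizontal axis) of tags summed over each gene's peaks for 32 members, with 95% intervals, coloured by role. Receptors, kinases and factors lie close to 0, and Ifih1 and Zbp1 are the genes whose interval just misses 0.

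**Figure D3:**
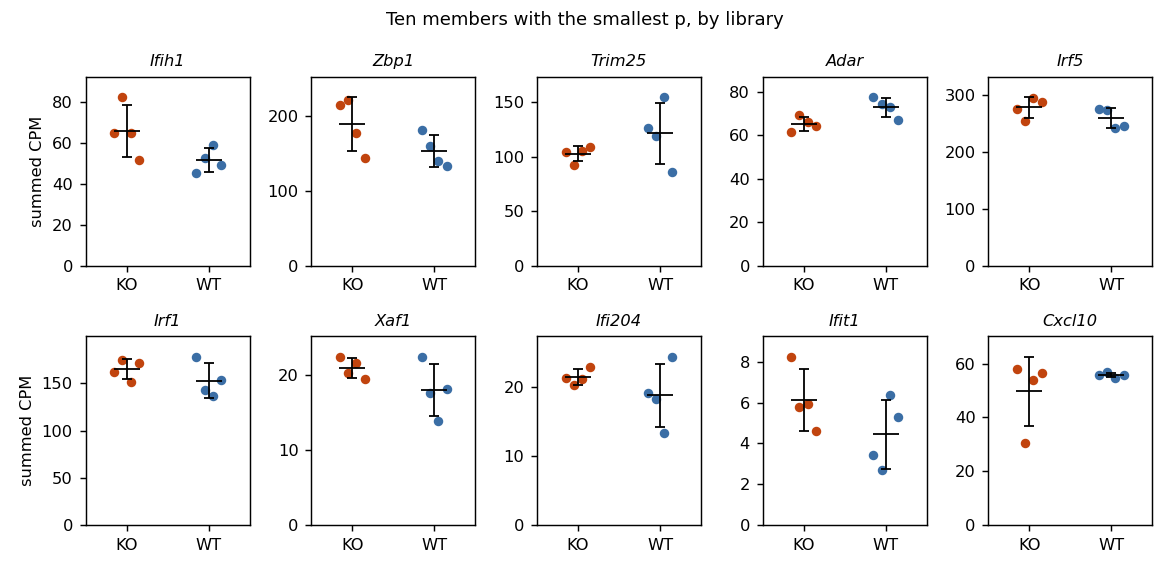
Summed CPM in each library for the 10 members with the smallest p, knockout left and wild type right, with the mean and SD as bars (n = 4 each) and axes starting at 0. The points of the genotypes overlap in every panel, and knockout replicate 2 is the low point of Cxcl10.

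At single peaks no member passed either. Of 160 member peaks, 135 held enough tags to be tested, and 0 reached an adjusted p under 0.05, against 99 of 58135 peaks (0.17%). The lowest adjusted p was 0.943. An unadjusted p under 0.05 was reached by 3 of 135, all higher in the knockout, against 4.83% of all peaks, and 2 of 135 had no overlap between genotypes, against 3.17%. Of the tested member peaks, 70 were higher and 65 lower, and the median log2 fold change was 0.0036, against 0.0037 for all peaks. The 95% interval stayed inside a 2-fold change for 120 of 135 but inside a 1.5-fold change for only 37.

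The peak with the smallest p lay 10.8 kb upstream of the Zbp1 start site (chr2:173229572-173229820). It had 21.7, 25.1, 21.5 and 18.1 CPM in knockout libraries and 15.9, 16.2, 14.8 and 11.6 in wild-type libraries. All knockout values exceeded all wild-type values, at a log2 fold change of 0.52 ± 0.21 (SE, edgeR adjusted p = 0.943). Its neighbour (chr2:173229846-173230149) had 30.2, 23.6, 26.3 and 31.1 CPM in knockout and 25.4, 28.1, 21.1 and 19.6 in wild-type libraries, with overlap. Zbp1 had promoter and other peaks on opposite sides of 0: both tested promoter peaks were lower in the knockout, and 9 of its 10 other tested peaks were higher. Zbp1 was set out in this way after its values were seen. Over the whole table, 37.5% of tested promoter peaks and 54.1% of other tested peaks were higher in the knockout. Irf1 was split in the same direction, as given above. Summed over promoter peaks alone, its log2 fold change was -0.20 ± 0.19 (SE). Of the 15 peaks assigned to Zbp1, 1 lay inside its gene span. The peak with the smallest p and its neighbour were annotated as introns though they lie upstream of the Zbp1 start site, so outside that gene.

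At Irf5, a peak at the end of the gene (chr6:29540356-29540671) had 21.7, 29.5, 19.8 and 23.3 CPM in knockout and 12.9, 19.7, 16.5 and 18.2 in wild-type libraries. These did not overlap, at a log2 fold change of 0.45 ± 0.21 (SE, edgeR adjusted p = 1). At Ifih1, an exonic peak 620 bases into the gene (chr2:62645505-62645766) had 12.1, 13.3, 8.78 and 5.82 CPM in knockout and 4.47, 7.73, 6.83 and 2.33 in wild-type libraries, with overlap. The Ifih1 promoter peak (chr2:62646026-62646317), which holds the ISRE match shown above, had 27.8, 36.9, 22.8 and 23 CPM in knockout and 17.4, 24.6, 23.3 and 17.7 in wild-type libraries. Its groups overlapped and its log2 fold change was 0.33 ± 0.21 (SE). Near Irf7, a peak (chr7:141268934-141269213) had 16.9, 16.2, 12.7 and 19.1 CPM in knockout and 14.9, 14.1, 10.2 and 13.5 in wild-type libraries, also with overlap.

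**Figure D4:**
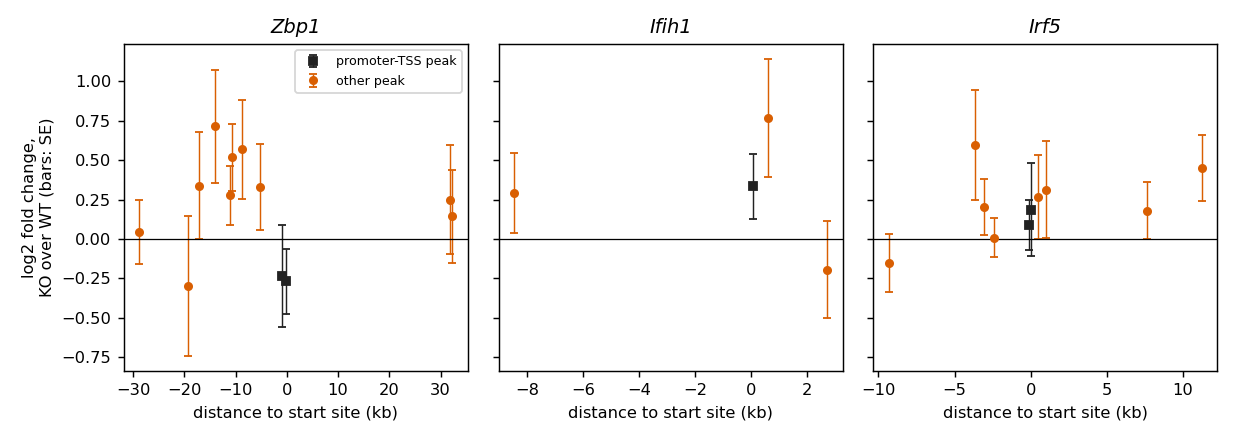
Log2 fold change (knockout over wild type, bars are SE) of each tested peak of Zbp1, Ifih1 and Irf5 against its distance in kb to the start site, with promoter peaks as squares. At Zbp1 both promoter peaks lie below 0 while 9 of 10 other peaks lie above it. Over the whole table, 37.5% of promoter peaks and 54.1% of other peaks lie above 0.

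Promoter peaks of induced genes had a median below 0, as did promoter peaks of the table in general. Of 19 tested, 12 were lower and 7 higher, with a median log2 fold change of -0.08, while all 12378 promoter peaks of the table had a median of -0.06 and all other peaks 0.03. The 11 promoter peaks of receptors and factors had a median of 0.0036. With scaling to all tags, the median of the 30 tested member promoter peaks was 0.069 in place of -0.03. That of all peaks, in promoters or not, was 0.10, which is not a like background for promoter peaks. At the Cxcl10 promoter (chr5:92348824-92349118) the values were 12.1, 14.8, 18.9 and 19.7 CPM in knockout and 18.4, 20.4, 28.5 and 24.2 in wild-type libraries, at a log2 fold change of -0.38 ± 0.21 (SE). Bst2, which encodes the virus-tethering protein tetherin, had 15.7, 16.2, 21.5 and 25.2 CPM in knockout and 25.4, 27.4, 29.6 and 21.9 in wild-type libraries at its promoter (chr8:71537350-71537735). Samhd1, which depletes nucleotides needed by viruses, had 9.65, 14.8, 15.8 and 23 CPM in knockout and 16.4, 21.8, 25 and 22.4 in wild-type libraries at its promoter (chr2:157135070-157135299). In each of these the lowest libraries were knockout replicates 1 and 2, which had the lowest shares of tags in peaks. Without both, the log2 fold changes were -0.24 ± 0.22 (SE) at Cxcl10, -0.13 ± 0.21 (SE) at Bst2 and -0.11 ± 0.23 (SE) at Samhd1.

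The promoter peaks of Adar, Trim25 and Zbp1 described above in CPM per kb had log2 fold changes of -0.29 ± 0.18, -0.31 ± 0.22 and -0.27 ± 0.21 (SE). With 1 library left out, the Trim25 promoter ran from -0.45 to -0.09, the value without wild-type replicate 3, and the Zbp1 promoter from -0.40 to -0.08, the value without wild-type replicate 1. A further Trim25 peak 25 kb from the start site (chr11:89024254-89024561) had 43.4, 45.8, 58.0 and 61.1 CPM in knockout and 69.1, 68.2, 72.3 and 44.3 in wild-type libraries. Its wild-type replicate 4 lay among the lowest knockout values, so the groups overlapped.

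Assignment by nearest gene left some promoters of members under other names. The peak over the Ifit1 start window (chr19:34640666-34640938), with both ISRE matches, was assigned to Ifit1bl2. It had 4.83, 7.38, 17.6 and 17.5 CPM in knockout and 14.4, 13.4, 18.8 and 16.3 in wild-type libraries, at a log2 fold change of -0.16 ± 0.27 (SE). The peak over the Irf3 start window (chr7:44997163-44997418) was assigned to Bcl2l12 and had 6.03, 2.95, 11.0 and 17.1 CPM in knockout and 11.4, 14.1, 13.7 and 17.2 in wild-type libraries. Neither passed the test, and in both the lowest values were those of knockout replicates 1 and 2. The reverse also occurred: only 1 of 15 peaks assigned to Zbp1 and 3 of 10 assigned to Irf1 lay inside the gene's own span. None of the 6 peaks assigned to Ifitm3 did, nor did the 1 peak each of Ifit3 and Ifit1. The Ifit3 peak lay inside the Ifit2 span. The sums of Ifitm3, Ifit3 and Ifit1 thus describe the surroundings of these genes.

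The wider interferon network was examined through 131 further genes, of which 104 were tested. None passed in edgeR's test, 7 had an unadjusted p under 0.05 (4 higher, 3 lower), a share near the 5.96% of all genes, and the median log2 fold change of the 104 was 0.03. The smallest p belonged to Ly6e, an interferon-induced surface protein that blocks coronavirus entry, with 171, 109.9, 130.3 and 133 CPM in knockout and 221, 157, 192 and 166 in wild-type libraries. Its log2 fold change was -0.44 ± 0.11 (SE, edgeR adjusted p = 0.200). The Ly6e sum passed without knockout replicate 1 (adjusted p = 0.0441) and with replicate number as a block (adjusted p = 0.0209). It did not pass when any other single library was left out (adjusted p of 0.147 to 0.6325). Nor did it pass with DESeq2 (adjusted p = 0.1305) or with scaling to all tags. Socs3, a feedback inhibitor of JAK signalling, had 544, 495, 468 and 499 CPM in knockout and 460.2, 468, 399 and 416 in wild-type libraries, at 0.20 ± 0.08 (SE). Apobec3, which restricts retroviruses, had 117, 109.9, 124 and 120.2 CPM in knockout and 118, 65.5, 107 and 89.8 in wild-type libraries, at 0.31 ± 0.13 (SE).

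Of the 472 tested peaks of that network, 1 passed, a share near the 0.17% of all peaks. It was an intergenic peak 23.2 kb from the Ly6e start site (chr15:74931669-74931952). The peak fell in the knockout, with 21.7, 5.91, 8.34 and 7.44 CPM in knockout and 31.8, 17.6, 33.0 and 19.1 in wild-type libraries (log2 fold change -1.39 ± 0.29, edgeR adjusted p = 0.0386). Knockout replicate 1 lay within the wild-type range. The call was lost with DESeq2 (adjusted p = 0.112), with a mean of at least 20 tags (adjusted p = 0.113), with scaling to all tags (adjusted p = 1) and when any of knockout replicates 2, 3 or 4 or wild-type replicates 1 or 3 was left out (adjusted p of 0.0731 to 0.316).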

How the data were processed

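Tag counts were analysed for 4 Nlrp3 knockout and 4 wild-type libraries. The deposited values used are whole-number counts of tags that HOMER, per the file headers, tallied over a merged list of reproducible (IDR) peaks of both genotypes, with at most 3 tags per position. Bowtie2, DESeq2 and the mm10 build are named in the submitters' processing notes. On alignment settings, any shift of read ends and duplicate removal, nothing is given in the sources used here.

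Counts per peak, and counts summed over all peaks the table assigns to a gene, were tested over the whole table with edgeR 4.0.16 (R 4.3.3): quasi-likelihood F test, TMM scaling, filterByExpr with a minimum count of 10, genotype as the only term, and Benjamini-Hochberg adjustment with a threshold of 0.05. CPM (counts scaled to the tags of all tested features, after TMM) were used as levels, so they do not carry the share of tags in peaks. The 117 peaks without a gene, with 0.134% of in-peak tags, stayed out of gene sums. SE is the log2 fold change divided by the square root of F. No pair of libraries within a genotype agreed within sampling noise. Knockout replicates 1 with 2 and 3 with 4 were closest (chi-square per degree of freedom 1.17 and 1.43), against 1.68 to 2.49 for the other knockout pairs. The knockout libraries were thus not evenly spread replicates.

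The fits were tested on simulated data. Unchanged features gave p-values at the nominal rate, but where each peak was given its own dispersion estimate, the peaks called held more unchanged ones than the threshold allows; where dispersions followed the trend they did not. Counts of changed peaks, and the Ly6e peak, are to be read with that limit.

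The genes and lists were chosen with earlier results of these data known. Values per library are given for the 10 members with the smallest p, the 12 member peaks with the smallest p among those with a mean of at least 20 tags, the promoters of 3 receptors or factors and 3 induced genes with the highest wild-type level, members or other interferon genes that pass, and the 3 other interferon genes with the smallest p. The exonic Ifih1 peak and peaks assigned to other genes were added after their values were seen. Promoter sequences come from RefSeq (GRCm38.p6); 30 of 36 members had a window. Replicate numbers were not used as pairs in the main test: replicates 2 and 4 matched best with their own number across genotypes, and replicates 1 and 3 did not. Alternatives were DESeq2 1.42.0, other scalings and filters, robust moderation, a replicate block, promoter peaks alone, and leaving out libraries.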

Additional observations from a re-analysis of the deposited data

Results flagged for a closer look

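In 6 of 56 groups of 4 libraries examined, 1 library lay far from the other 3. Chance alone does so in about 1 in 20 separate groups. The groups here come from the same libraries and are not independent, so their count cannot be set against that rate. Summed Cxcl10 was 30.4 CPM in knockout replicate 2, against 53.7 to 57.8 CPM in the other knockout libraries. The Ifnar1 promoter peak was 35.4 CPM in the same library, against 58.2 to 60.3 CPM. Among wild-type libraries, the Trim25 promoter peak was 35.3 CPM in replicate 3, against 20.4 to 21 CPM, and the Trim25 peak 25 kb from the start site was 44.3 CPM in replicate 4, against 68.2 to 72.3 CPM. Wild-type replicate 1 had 0.243% of its in-peak tags in member peaks, against 0.221% to 0.224% in the others, and 29.6% of its member tags in promoter peaks, against 32.0% to 32.1%.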

How the results depend on the processing

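The counts of members past the test stayed at 0 genes and 0 peaks under every alternative run, DESeq2 included. Over all features, changed peaks numbered 99 and became 19 with scaling to all tags, 42 with a mean of at least 20 tags, and 246 without both knockout libraries of lowest share in peaks; changed genes numbered 33 and became 5 and 70 under the first and last of these. Leaving out 1 library gave 65 to 123 peaks and 20 to 42 genes; the lowest were without knockout replicate 3 (65 and 20), with 21 genes without wild-type replicate 3. Other interferon genes gave 0 to 1 when 1 library was left out.

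Replicate numbers did not deviate together in every pair (r of -0.0077, 0.0954, -0.0075 and 0.146), and no pair beyond replicates 2 and 4 matched best with its own number. The replicate block gave 140 changed peaks, 38 changed genes and 1 other interferon gene, Ly6e (adjusted p = 0.0209).

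Scaling to all tags moved the median of all genes to 0.09 and of all peaks to 0.10, the median of induced genes to 0.064 and of member promoter peaks to 0.069. Values that changed sign were all far from the threshold. Summed over promoter peaks only, Zbp1 was -0.20 and Irf1 -0.015. Cxcl10 was 0.032 with scaling to all tags and -0.17 to 0.0025 with 1 library left out. The Ifnar1 promoter was 0.074 with scaling to all tags, 0.028 without both low knockout libraries and -0.14 to 0.037 with 1 left out. The Jak1 promoter ran from -0.0083 to 0.075 and the Tyk2 promoter from -0.11 to 0.12 with 1 left out, and Tyk2 was -0.0325 with the block and -0.0051 with DESeq2. The difference in share of tags in peaks ran from -2.77 to 4.32 percentage points with 1 library left out, an alternative chosen after seeing the data. The causes were not tested. Median member peaks of 7 and 9 tags in knockout replicates 2 and 1 limit the precision of single peaks.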
